A study of Mus musculus with 9 samples.

Results

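The genes described here encode the enzymes and transporters of fatty acid oxidation and of ketone body metabolism, with a few regulators of hepatic fuel use. Of a list of 37 such genes, 36 had a probe with their symbol in the array's annotation and 30 were measured, by the rule that at least 1 probe had a detection p-value under 0.05 on at least 4 of the 9 arrays. The 30 genes were read by 58 such probes, out of 45281 probes on the array, and they stand among 9319 measured genes with a symbol. A gene with several such probes is given by its brightest one. By place of action, 15 of the 30 act in mitochondria, 9 in peroxisomes, 3 (Crat, Ech1 and Eci2) in both, and 3 (Slc22a5, Pdk4 and Angptl4) in carnitine entry, fuel choice and lipid supply.

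The transcripts were read with Illumina bead arrays in 9 livers of C57BL/6 mice, taken 12 h after partial hepatectomy, the removal of part of the liver that sets off its regrowth. The 4 controls (control 1 to control 4) were labelled WT with the treatment "Control", with no vehicle or injection stated. The 5 other livers (KO 1 to KO 5) came from mice labelled LTRβ-/-, which lack the lymphotoxin β receptor (gene Ltbr), and these mice had received etanercept (Enbrel), a soluble TNF receptor fusion protein, 24 h before surgery. Genotype and drug changed together, so each difference belongs to the combination, and no unoperated liver was analysed here. Age and sex of the mice, the time of day of the surgery, feeding and the way the allele was made are not given in the labels. The labels also give a surgery day, numbered 1 to 5, for each liver, and do not say whether each liver is 1 animal, so p-values measure only the spread between these samples, which may be technical.

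Fatty acids enter mitochondria as carnitine esters and are shortened there by repeated rounds of dehydrogenation, hydration, a second dehydrogenation and thiolysis, which feed electrons into the respiratory chain. Peroxisomes run a parallel cycle for very long and branched chains and hand the shortened products on. In the liver, surplus acetyl-CoA is turned into ketone bodies for other tissues, and many of these genes are targets of the nuclear receptor PPAR alpha, which fatty acids activate. After partial hepatectomy the remnant liver is known to take up lipid before its hepatocytes divide.

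KO 4 was a dim array, with a mean bead signal of 143 intensity units against 336 to 438 for the 8 others, and on it 9493 probes were detected against 13926 to 16186 elsewhere. For the measured genes of the list, where leaving out KO 4 moved a difference by over 1.5 times or turned its sign, the value without KO 4 is given too. For Slc25a42, Acot4, Pex11g and Pex26, outside the list, the same was done. Differences of the other genes named here, Ltbr, Oxct1 and Ppargc1a among them, are given with KO 4 included and may rest on it. Ltbr, the deleted gene, was read by 1 probe at 6.41 to 6.97 in the controls and 4.87 to 6.77 in the KO livers (normalized log2 expression), a difference of -0.78 ± 0.35 (SE) that did not pass (limma adjusted p = 0.931); whether the probe lies in the deleted part is not known, so it does not check the labels. All 8 hepatocyte markers were measured. Their summed normalized level, on a linear scale, lay between 70470 and 89110 in the controls and between 71800 and 83210 in the KO livers. This sum rests mostly on the brightest markers, such as Apoa1 and Ttr. Quantile normalization holds the brightest levels nearly alike across arrays, so the sum is a weak check. Singly the differences ran from -1.21 ± 0.84 (SE) for Pck1 to 0.26 ± 0.34 (SE) for Alb, and the groups overlapped for each.

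No gene of the list passed the test between the groups, but their mean values were lower in the KO livers with few exceptions. In the limma fit over all 11559 features, 0 of the 30 genes had an adjusted p under 0.05, the threshold used throughout, against 0.00865% of all features (1 of 11559), and the smallest adjusted p among them was 0.931. The KO mean was below the control mean for 26 of the 30 genes, against 52.4% of all features, and the median difference was -0.33 on the log2 scale, against -0.02 over all features. At an unadjusted p under 0.05 stood 7 of the 30, against 4.09% of all features: Bdh1, Crat, Slc25a20, Ehhadh, Acaa1a and Acads had lower means (6 of 30, against 2.45% of all features) and Pdk4 a higher one (1 of 30, against 1.64%). The groups did not overlap, with the KO livers lower, for Acaa1a and Hsd17b4, which is 2 of 30 against 0.467% of all features, and with the KO livers higher for 0 of 30 (0.329% of all features). Differences in a bulk sample cannot tell fewer cells of a type from less RNA per cell. Precision is limited by the number of arrays, and the standard error had a median of 0.30 over the 30 genes.

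**Figure D1:**
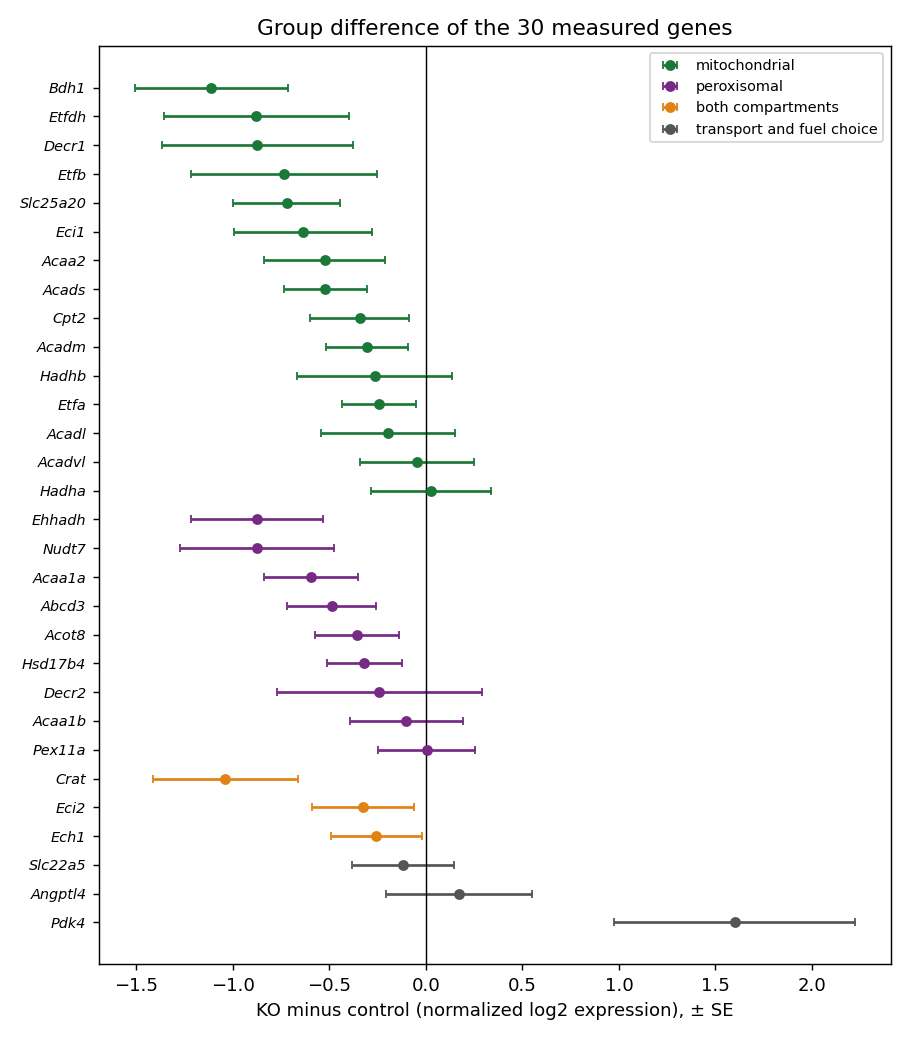
Difference between the KO and control group means (normalized log2 expression, horizontal axis) for each of the 30 measured genes, with its standard error from the limma fit (4 control and 5 KO livers), coloured by compartment. Of the 30 points, 26 lie left of 0, from Bdh1 at -1.11, and Pdk4 lies farthest right at 1.60.

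Among the genes of the carnitine shuttle, which moves acyl groups across the mitochondrial membranes, all 3 measured ones had a lower KO mean. Slc25a20 encodes the carnitine-acylcarnitine translocase of the inner membrane (chromosome 9, 108662136 to 108684642 in GRCm38.p6). Its normalized log2 expression was 10.93, 11.78, 11.53 and 11.47 in control 1 to control 4 and 10.31, 10.92, 11.30, 10.28 and 10.74 in KO 1 to KO 5. KO 3 lay within the control range and the other KO livers lay below all controls. The difference was -0.72 ± 0.28 (SE), with a limma adjusted p of 0.931 and an unadjusted p of 0.025. Its weaker probe differed by -0.32. Cpt2, which releases acyl-CoA on the inner side, differed by -0.34 ± 0.26 (SE) (-0.18 without KO 2), and its 3 probes by -0.34, -0.37 and -0.60. Slc22a5 encodes the carnitine importer of the plasma membrane. Its weaker probes differed by -0.30 and -0.07, and its brightest one by -0.12 ± 0.26 (SE) (-0.19 without KO 4). Its values were 9.65, 9.86, 10.24 and 10.77 in control 1 to control 4 and 10.01, 9.67, 9.99, 10.32 and 10.09 in KO 1 to KO 5. The groups overlapped throughout, and the sign turned with surgery day as a block. Cpt1a, the rate-limiting carnitine palmitoyltransferase of liver, was not measured: its 2 probes gave a signal of 80.65 to 118.6 intensity units and were detected on 0 arrays.

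The acyl-CoA dehydrogenases start each round of mitochondrial oxidation and differ in the chain length they accept. The KO mean was lower for all 4, from -0.04 for the very long chain enzyme Acadvl and -0.20 for the long chain enzyme Acadl to -0.31 for the medium chain enzyme Acadm and -0.52 for the short chain enzyme Acads. Acads was 9.21, 9.64, 9.64 and 9.58 in control 1 to control 4 and 8.80, 9.03, 9.39, 8.91 and 8.86 in KO 1 to KO 5. Again KO 3 alone reached into the control range, above control 1. The difference of -0.52 ± 0.21 (SE) had an unadjusted p of 0.033 and an adjusted p of 0.931 in limma. The second probes of Acadvl and Acadl read larger differences (-0.56 and -0.76) than the ones used, and the second probe of Acads a smaller one (-0.23), so the order of the 4 rests on the choice of probe. That dim second probe of Acads was detected on 3 of 4 control and 2 of 5 KO arrays. Without control 4 the differences of Acadvl and Acadl were 0.09 and 0.03, and without KO 4 they were -0.24 and -0.37.

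The later steps of the mitochondrial cycle differed more from gene to gene. Hadha and Hadhb encode the subunits of the trifunctional protein, which carries out the later steps on long chains. Their start sites lie head to head 273 bases apart on chromosome 5, so their promoter windows, from 250 bases before to 50 after each start (RefSeq, GRCm38.p6), share 228 bases. That window is shown for Hadhb, with the GC box letters GGGCGG (either strand) in capitals, since most of it is common to the windows of both genes.
Hadhb, chr5:30155003-30155302, plus strand: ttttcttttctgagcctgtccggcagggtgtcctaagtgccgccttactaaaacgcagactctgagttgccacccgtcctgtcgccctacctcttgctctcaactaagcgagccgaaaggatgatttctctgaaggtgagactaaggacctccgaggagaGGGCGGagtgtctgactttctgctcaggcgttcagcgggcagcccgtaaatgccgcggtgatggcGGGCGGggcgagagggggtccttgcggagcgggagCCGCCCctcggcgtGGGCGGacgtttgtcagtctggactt
Hadhb ranged from 10.82 to 12.34 in the controls and from 10.03 to 11.87 in the KO livers, with a difference of -0.27 ± 0.40 (SE). Hadha ranged from 6.03 to 6.78 in the controls and from 5.63 to 7.19 in the KO livers, with a difference of 0.03 ± 0.31 (SE). Hadhb was at 0.06 without control 4 and at -0.46 without KO 4, and without KO 1 Hadha was at -0.15. Neither gene separated the groups, and the pair did not share its extremes: Hadhb was lowest in KO 2 and highest in control 4, Hadha lowest in KO 3 and highest in KO 1. Acaa2, the mitochondrial thiolase, differed by -0.52 ± 0.31 (SE) and its 3 other probes by -0.40, -0.31 and -0.44. Eci1, an enoyl-CoA isomerase needed for unsaturated chains, differed by -0.64 ± 0.36 (SE), and by -0.39 without KO 4.

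Decr1, the mitochondrial dienoyl-CoA reductase, also serves unsaturated chains. Its values were 8.77, 9.58, 8.51 and 10.47 in control 1 to control 4 and 9.16, 7.42, 8.88, 9.18 and 7.66 in KO 1 to KO 5. Control 4 stood above all others and KO 2 and KO 5 below all others, while the remaining livers overlapped. The difference was -0.87 ± 0.49 (SE). Without control 4 it was -0.49, and within surgery day 5 it was 0.10. Hadh, the short chain hydroxyacyl-CoA dehydrogenase, was detected by its better probe on 1 array only and is not tested.

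The electron transfer flavoprotein takes electrons from the acyl-CoA dehydrogenases, and Etfdh passes them to ubiquinone. All 3 genes had a lower KO mean, with -0.24 ± 0.19 (SE) for Etfa, -0.74 ± 0.48 (SE) for Etfb and -0.88 ± 0.48 (SE) for Etfdh. Etfdh was 9.08, 10.42, 9.92 and 9.77 in control 1 to control 4 and 8.29, 9.37, 10.18, 7.60 and 9.15 in KO 1 to KO 5. The lowest value was on KO 4, the dim array, and KO 3 read higher than 3 of the 4 controls. Without KO 4 the difference of Etfb was -0.40 and that of Etfdh -0.55, and with surgery day as a block as well Etfdh was at -0.19. The 3 other probes of Etfdh, which were dimmer and not detected on all arrays, differed by -0.22, -0.51 and -0.33. The other probes of Etfa differed by -0.14 and -0.09, and the second probe of Etfb by -0.53 ± 0.26 (SE).

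Bdh1, the mitochondrial enzyme that interconverts acetoacetate and β-hydroxybutyrate, had the largest negative difference of the 30 genes (Entrez gene 71911, chromosome 16, 31422297 to 31458901 in GRCm38.p6). It was 9.84, 10.13, 9.74 and 11.16 in control 1 to control 4 and 9.31, 8.07, 9.31, 9.90 and 8.94 in KO 1 to KO 5. The means were 10.22 ± 0.65 (SD, n = 4) and 9.11 ± 0.68 (SD, n = 5), and KO 4 was the 1 KO liver that reached the control range. The difference of -1.11 ± 0.40 (SE), or 2.16-fold, had an unadjusted p of 0.017 and a limma adjusted p of 0.931. It was negative under every alternative run for it, from -0.23 within surgery day 2 to -1.84 within surgery day 1. The other measured genes of ketone body metabolism differed by -0.44 (Acat1), -0.17 (Oxct1) and -0.10 (Bdh2), and none passed. Acat1 and Oxct1 were lowest on KO 4, the dim array, at 4.63 and 4.96, and were detected on 4 of 5 KO arrays. The other KO livers read 5.91 to 6.49 for Acat1, within the control range of 5.83 to 6.93. For Oxct1 they read 5.79 to 6.50, on both sides of the control range of 5.97 to 6.22.

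The peroxisomal cycle was represented by 5 genes, all with a lower KO mean. Ehhadh, the bifunctional enzyme of straight chains, was 7.83, 8.24, 8.94 and 8.70 in control 1 to control 4 and 7.53, 6.89, 8.19, 7.05 and 8.10 in KO 1 to KO 5. KO 3 and KO 5 lay inside the control range and the other KO livers lay below it. The difference was -0.88 ± 0.34 (SE), with an unadjusted p of 0.027 and an adjusted p of 0.931. Hsd17b4, the bifunctional enzyme of branched chains and bile acid precursors, differed by only -0.32 ± 0.20 (SE) with an unadjusted p of 0.133, yet all KO livers (12.31 to 12.64) lay below all controls (12.70 to 12.99). Decr2, the peroxisomal dienoyl-CoA reductase, ranged from 6.25 to 8.33 in the controls and from 6.34 to 8.20 in the KO livers, with a difference of -0.24 ± 0.53 (SE) (0.06 without control 2, -0.16 without KO 4).

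Acaa1a and Acaa1b are paralogs that encode the peroxisomal thiolase, and they lie 184 kb apart on mouse chromosome 9. Acaa1a was 12.18, 12.67, 12.37 and 13.22 in control 1 to control 4 and 11.90, 12.04, 12.12, 12.12 and 11.89 in KO 1 to KO 5. All KO livers lay below all controls, and the KO values were close together (SD 0.11, n = 5). Acaa1b was 13.23, 12.64, 12.66 and 13.09 in control 1 to control 4 and 12.27, 13.02, 13.19, 12.22 and 13.31 in KO 1 to KO 5. Here the groups overlapped, with KO 1 and KO 4 low. The differences were -0.60 ± 0.24 (SE) and -0.10 ± 0.29 (SE), and neither passed. That of Acaa1a was -0.39 without control 4 and -0.06 within surgery day 5. In the per-array difference between the 2 paralogs, the groups differed by -0.50 (exact permutation p = 0.206, two-sided, 126 assignments), so the data do not separate them; without KO 4 the sign of Acaa1b turned (0.05). Each was read by 1 probe, and whether a probe also binds the other transcript was not looked up. Their promoter windows (RefSeq, GRCm38.p6) are shown because they differ in letters, with 49.4% of the aligned columns identical. The windows are not placed alike. The annotated Acaa1a gene begins at 119341028, so its window belongs to a start site further inside the gene. That of Acaa1b spans the outer end of its gene, at 119157093. The contrast in letters therefore depends on the start site used. Capitals mark CCAAT and GGGCGG on either strand, which may touch.
Acaa1a, chr9:119341044-119341343, plus strand: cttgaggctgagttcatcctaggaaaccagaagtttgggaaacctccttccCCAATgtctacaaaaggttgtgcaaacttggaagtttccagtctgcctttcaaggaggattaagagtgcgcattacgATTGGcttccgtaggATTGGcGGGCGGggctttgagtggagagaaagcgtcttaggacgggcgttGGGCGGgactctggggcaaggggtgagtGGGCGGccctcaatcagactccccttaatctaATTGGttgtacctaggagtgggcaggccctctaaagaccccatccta
Acaa1b, chr9:119157044-119157343, minus strand: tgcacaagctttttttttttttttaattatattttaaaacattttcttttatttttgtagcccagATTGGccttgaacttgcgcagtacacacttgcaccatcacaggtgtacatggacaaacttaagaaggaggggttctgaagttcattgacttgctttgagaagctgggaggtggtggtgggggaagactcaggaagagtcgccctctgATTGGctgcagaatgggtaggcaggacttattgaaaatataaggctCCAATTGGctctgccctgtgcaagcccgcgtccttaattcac
Both windows hold CCAAT 4 times, and in Acaa1b a pair of these matches overlaps. GGGCGG occurs 3 times in the Acaa1a window and 0 times in that of Acaa1b.

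The other peroxisomal genes serve transport, CoA handling and organelle growth. Nudt7, a hydrolase of coenzyme A in peroxisomes, was 12.82, 13.75, 12.80 and 14.31 in control 1 to control 4 and 12.86, 11.93, 12.71, 13.32 and 11.92 in KO 1 to KO 5. Control 2 and control 4 read highest and KO 2 and KO 5 lowest, while the other livers overlapped. The difference was -0.88 ± 0.40 (SE) with an unadjusted p of 0.051, and it was -0.58 without control 4 and -0.11 within surgery day 5. Of its 3 other probes, those that were detected on all arrays differed by -1.22 and -0.78. The last, at -1.18, was detected on 3 of 4 control and 1 of 5 KO arrays. Abcd3, an acyl-CoA transporter of the peroxisomal membrane, differed by -0.49 ± 0.23 (SE) and the thioesterase Acot8 by -0.36 ± 0.22 (SE). Pex11a, which promotes peroxisome division, differed by 0.00 ± 0.25 (SE), its probes differed in sign, and its own sign turned with single livers left out (0.10 without KO 4). Crot, the peroxisomal carnitine octanoyltransferase, was detected on 0 arrays and Abcd2 on 1.

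Of the 3 genes that act in both compartments, Crat encodes carnitine acetyltransferase, which exports surplus acetyl groups. Its values were 6.42, 7.39, 6.88 and 7.80 in control 1 to control 4 and 5.72, 6.00, 7.19, 5.64 and 5.85 in KO 1 to KO 5. KO 3 read 7.19, within the control range, and the other KO livers lay below all controls, between 5.64 and 6.00. The difference was -1.04 ± 0.37 (SE), or 2.06-fold, with an unadjusted p of 0.018 and an adjusted p of 0.931, and Crat was detected on 4 of 5 KO arrays. Its size moved with the background step: it was -0.53 with no background correction, -0.76 with an offset of 50 and -0.51 in the authors' deposited values, where Ech1 was at -0.41. The values of Ech1, a dienoyl-CoA isomerase, were 12.37, 12.54, 12.22 and 12.50 in control 1 to control 4 and 11.91, 12.51, 12.51, 11.67 and 12.14 in KO 1 to KO 5. Those of Eci2, an enoyl-CoA isomerase, were 9.97, 10.70, 11.24 and 10.62 in control 1 to control 4 and 9.98, 10.36, 10.43, 10.35 and 10.43 in KO 1 to KO 5. The groups overlapped for both, with differences of -0.26 ± 0.24 (SE) and -0.32 ± 0.27 (SE). Ech1 was at -0.14 without KO 4. Eci2 was at -0.12 without control 3 and at -0.55 without control 1.

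Pdk4 ran against the rest. Its product inhibits pyruvate dehydrogenase and so spares glucose when fat is burned, and it is a well-known target of PPAR alpha and of glucocorticoids. It was 9.21, 7.31, 10.17 and 7.82 in control 1 to control 4 and 9.41, 10.97, 8.99, 11.07 and 10.70 in KO 1 to KO 5. KO 2, KO 4 and KO 5 lay above all controls, and control 2 and control 4 lay below all other livers. The difference was 1.60 ± 0.62 (SE), or 3.03-fold, with an unadjusted p of 0.026 and an adjusted p of 0.931. It lay between 1.16 and 2.11 when single livers were left out, it was 0.69 with surgery day as a block and without KO 4, and it was -0.22 within surgery day 5. Angptl4, another PPAR alpha target, encodes an inhibitor of lipoprotein lipase. It was 11.03, 10.57, 11.64 and 10.85 in control 1 to control 4 and 10.50, 11.99, 11.30, 10.38 and 11.79 in KO 1 to KO 5. The groups overlapped, and the difference of 0.17 ± 0.38 (SE) was negative with surgery day as a block (-0.08), in the authors' deposited values (-0.12) and within surgery days 1 and 2 (-0.35 and -0.19), and it was 0.38 without KO 4.
Pdk4, chr6:5496229-5496528, minus strand: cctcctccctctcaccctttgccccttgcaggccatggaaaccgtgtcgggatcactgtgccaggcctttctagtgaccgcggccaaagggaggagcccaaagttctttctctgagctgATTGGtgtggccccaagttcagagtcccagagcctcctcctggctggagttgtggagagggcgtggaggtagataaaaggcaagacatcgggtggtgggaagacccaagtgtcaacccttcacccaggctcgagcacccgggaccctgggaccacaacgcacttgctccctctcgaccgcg
In this promoter window of Pdk4 (RefSeq, GRCm38.p6) the capitals mark its 1 CCAAT match, and GGGCGG occurs 0 times; it is shown as that of the 1 gene with a higher KO mean at an unadjusted p under 0.05.

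RefSeq promoter windows were found for 30 of the 37 genes (34 windows, 28 of them of measured genes). The motif of the kind that PPAR alpha and its partner RXR bind, 2 copies of AGGNCA in a row with a spacer of 1 base (N any base), was searched on both strands. It occurred in 1 of the 34 windows, against 0.38% of all 32851 windows, and the single copy AGGTCA, which may lie within such a repeat, in 4 (16.26% of all). CCAAT occurred in 13 (37.41% of all) and GGGCGG in 24 (35.66% of all, and 46.2% of those of protein-coding genes). The window with the direct repeat was that of Fabp1, the liver fatty acid binding protein, and its surroundings are shown with the repeat in capitals.
Fabp1, chr6:71199782-71199854, plus strand: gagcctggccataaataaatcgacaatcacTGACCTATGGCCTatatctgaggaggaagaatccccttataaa
A match is a description of letters only, and elements outside these 300 bases were not searched. Fabp1 itself is known as an abundant hepatocyte transcript, but its single probe gave 84.45 to 118.2 intensity units and was detected on 0 of the 9 arrays, so its level was not measured. The same holds for Vnn1 (0 arrays), and Acsl1 had no probe under its symbol.

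The KO mean was lower for 14 of 15 mitochondrial genes, with a median difference of -0.52, and for 8 of 9 peroxisomal genes, with a median difference of -0.36. The medians differed by -0.16 (mitochondrial minus peroxisomal), but with the mean of each gene's probes they were -0.44 and -0.45 and the order turned. The authors' deposited values also placed them within 0.012 of each other (-0.43 and -0.44). The medians by array moved together: the mitochondrial genes deviated from the midpoint of the group means by -0.12, 0.39, 0.08 and 0.41 in control 1 to control 4, and the peroxisomal genes by -0.13, 0.36, 0.10 and 0.32. In KO 1 to KO 5 the values were -0.23, -0.23, 0.04, -0.33 and -0.21 for the mitochondrial and -0.21, -0.27, 0.04, -0.37 and -0.33 for the peroxisomal genes. On every array the compartments lay on the same side of the midpoint, and control 1 lay on the side of most KO livers and KO 3 on that of most controls. Genes are not replicates of a condition, so these medians carry no test.

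**Figure D2:**
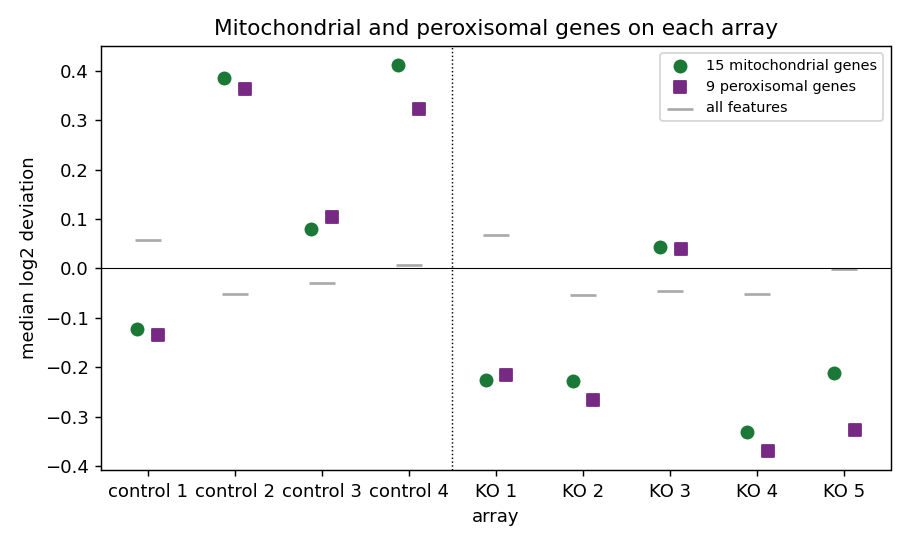
Median log2 deviation of the 15 mitochondrial (circles) and 9 peroxisomal genes (squares) from the midpoint of each gene's group means, by array, with the median over all features as a grey bar. Both compartments lie above 0 in control 2, control 3, control 4 and KO 3 and below 0 on the other arrays.

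The individual genes did not all follow this common course. Among the controls, control 1 was the lowest for 18 of the 30 genes (19.7% of all features). Control 4 was the lowest for 0 (26.2% of all features) and the highest for 14 (28.3%). Among the KO livers, KO 4 was the lowest for 14 and the highest for 11, so it lay at an extreme for most genes. KO 2 was the lowest for 9 of the 30 (22.6% of all features). Over all features KO 4 was the lowest KO liver for 39.3% and the highest for 31.9%. Genes for which KO 4 was the lowest of all 9 livers include Etfb, Etfdh, Eci1, Slc25a20 and Crat. Those for which KO 2 was the lowest include Bdh1, Decr1, Hadhb, Cpt2 and Acadl. KO 4 exceeded KO 2 for 13 of the 30 genes.

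**Figure D3:**
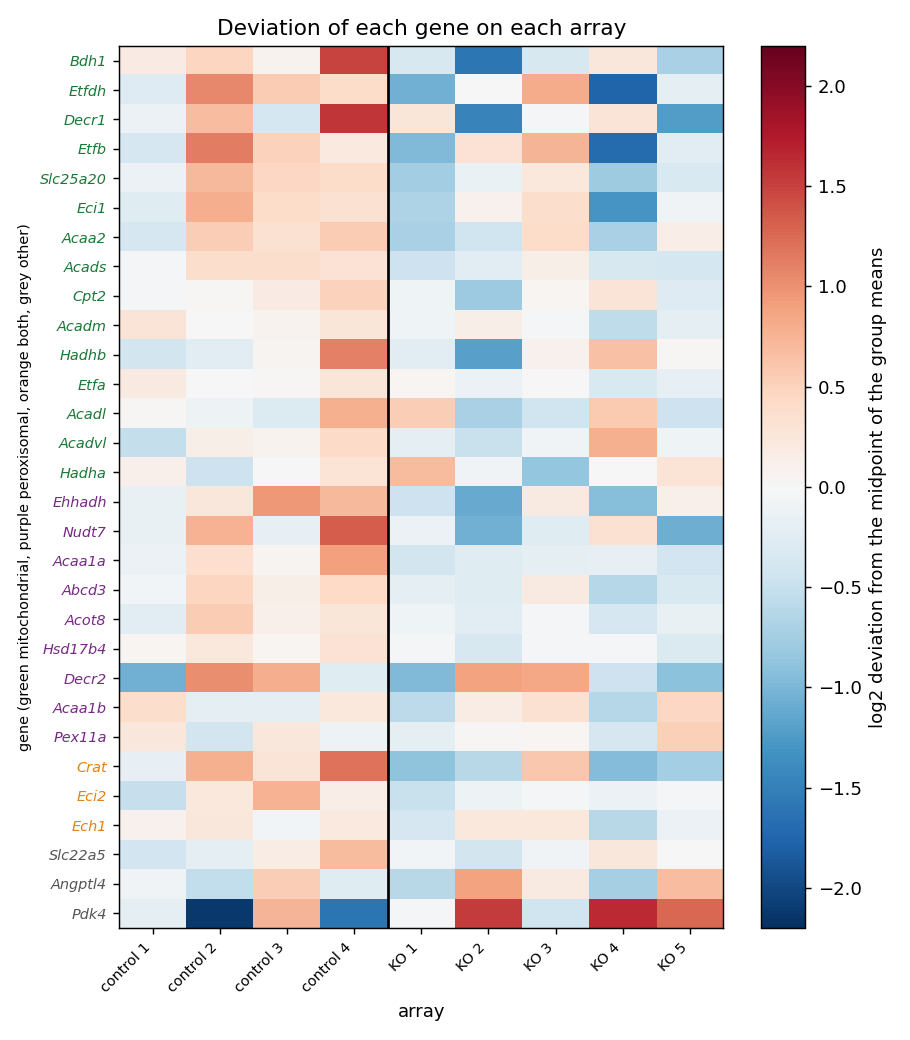
Log2 deviation of the 30 genes (rows, grouped by compartment and ordered by group difference) from the midpoint of their group means on each of the 9 arrays (columns), blue below and red above. Most genes are red in control 2 and control 4, while KO 4 holds strong colours of both kinds, such as Etfdh in blue and Acadvl in red, and Pdk4 in the bottom row runs the other way.

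Livers operated on the same day can be compared within 3 days, each with 1 liver a group. Within day 1 (KO 1 minus control 4) 28 of the 30 genes were lower in the KO liver, with a median of -0.74. Within day 2 (KO 4, the dim array, minus control 2) 22 were lower, with a median of -0.42. Within day 5 (KO 3 minus control 1) 11 were lower, with a median of 0.19, so the direction over all arrays did not hold on that day. On day 5 the difference was 1.10 for Etfdh, 1.11 for Etfb, 0.77 for Crat and 1.91 for Decr2, and -0.53 for Bdh1. The 7 genes that were lower on all 3 days were Acadm, Etfa, Bdh1, Acaa1a, Acaa1b, Hsd17b4 and Nudt7. Over all features the median differences were 0.03, -0.02 and -0.10 within days 1, 2 and 5. The shares of all features lower on each day, or on all 3, were not counted, so the 7 cannot be set against them. With surgery day as a block in limma, 26 of 30 genes had a lower KO mean, with a median of -0.42 and 3 residual degrees of freedom. In that fit 1 gene of the 30 had an unadjusted p under 0.05, against 175 of all 11559 features. Without control 1 the median difference was -0.52, and without KO 4 it was -0.38. The arrays lay on 2 slides, each with livers of both groups, and the median was -0.36 with slide as a term, -0.36 on slide 1 and -0.43 on slide 2.

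**Figure D4:**
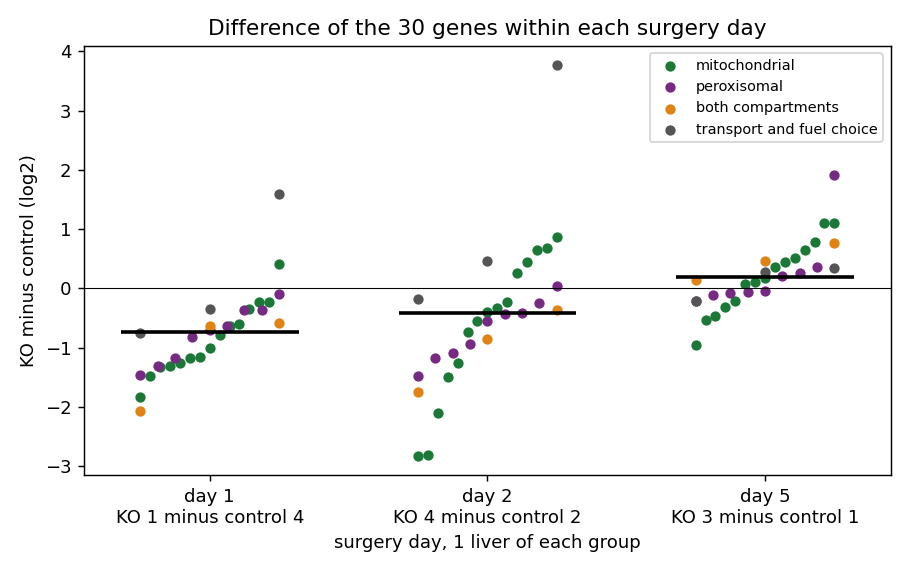
Difference of each of the 30 genes between the KO and the control liver operated on the same day (log2), for the 3 surgery days with a liver of each group. Colours mark the compartment and black bars the medians. The medians lie at -0.74, -0.42 and 0.19, and Pdk4 is the highest point of days 1 and 2.

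The authors' deposited normalized values gave other calls for the same probes. In them the surgery days held almost no difference: the day coefficients of a fit with group and day were 4.75e-06 on average (absolute log2) for day 2 against day 1, and 0.0935 for day 3, which holds 1 liver. In limma without a day term, 11 of the 30 genes passed, against 9.27% of all features, 10 lower (5.87% of all) and 1 higher (3.4% of all). The lower ones were Bdh1, Etfa, Acadm, Acads and Decr1 among the mitochondrial genes and Nudt7, Acaa1a, Acaa1b, Hsd17b4 and Ehhadh among the peroxisomal ones, and the higher one was Pdk4. Bdh1 differed by -0.96 ± 0.06 (SE) with an adjusted p of 0.000275, Nudt7 by -0.80 ± 0.10 (SE) with 0.00417, Acaa1a by -0.70 ± 0.11 (SE) with 0.0105 and Pdk4 by 1.47 ± 0.38 (SE) with 0.0461. If surgery day was removed before deposit, by a step not given in the sources used here, a fit without a day term counts too many degrees of freedom. With surgery day as a block in these values, 0 of the 30 genes passed and the smallest limma adjusted p was 0.783, while Bdh1 differed by -0.996. In the deposited values without KO 4, 6 of the 30 passed, and so did 415 of all 11559 features. The medians of the differences were close, -0.41 in the deposited and -0.33 in the neqc values, and the median standard error was 0.11 against 0.30.

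**Figure D5:**
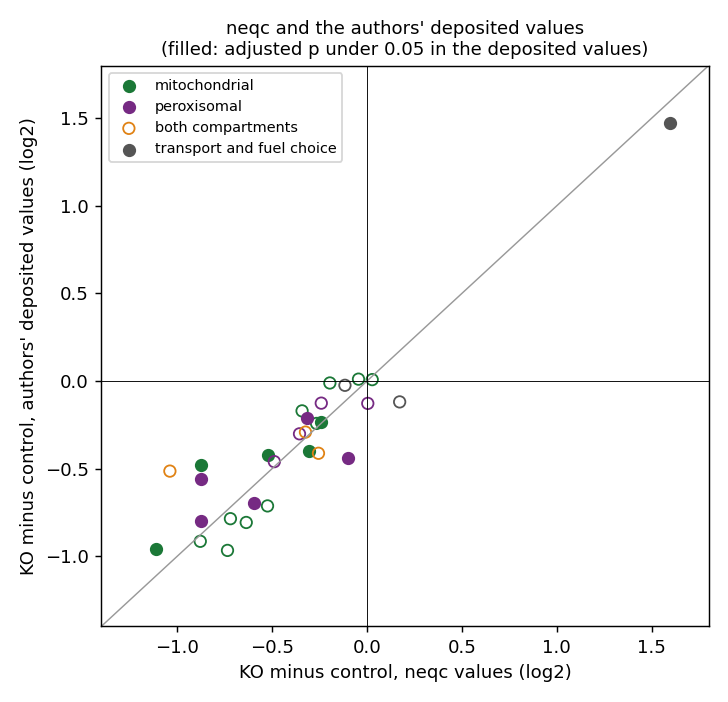
Group difference of the 30 genes in the neqc values (horizontal) and in the authors' deposited values (vertical), both log2, with the diagonal; filled points have an adjusted p under 0.05 in the deposited values without a day term. The 11 filled points include Bdh1 at the lower left and Pdk4 at the upper right.

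Other genes of the pathway, outside the 37, were counted from a list of 55, of which 40 were measured. The KO mean was lower for 35 of the 40, against 52.4% of all features, with a median of -0.19, and 0 passed. At an unadjusted p under 0.05 stood 4, all lower, against 2.45% of all features: Slc25a42, the mitochondrial carrier of coenzyme A, at -1.15 ± 0.44 (SE), Acot4, a peroxisomal thioesterase, at -0.90 ± 0.41 (SE), and the peroxisome genes Pex11g at -1.56 ± 0.66 (SE) and Pex26 at -0.88 ± 0.36 (SE). Pex26, which anchors the import machinery for matrix proteins, read 6.93, 6.76, 6.70 and 6.81 in control 1 to control 4 and 6.23, 5.80, 6.63, 4.65 and 6.29 in KO 1 to KO 5, without overlap. It was the 1 of the 40 with no overlap and the KO livers lower, against 0.467% of all features. Without KO 4, the dim array, Pex11g differed by -0.98 and Pex26 by -0.56. Both, and Slc25a42 too, were detected on 4 of 5 KO arrays. By role, 11 of 12 genes of peroxisome assembly, 7 of 8 of peroxisomal oxidation and 10 of 12 of mitochondrial oxidation had lower KO means. Over all features that share was 52.4%.

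Regulators did not share this course. Of 16 listed, 14 were measured, 6 with a lower and 8 with a higher KO mean, the median was 0.07, and 0 passed or had an unadjusted p under 0.05. Ppara read 5.84, 5.50, 5.63 and 6.10 in control 1 to control 4 and 5.59, 6.48, 5.10, 5.78 and 6.28 in KO 1 to KO 5. Its difference was 0.08 ± 0.30 (SE) and the groups overlapped. The coactivator genes Ppargc1a and Ppargc1b differed by -0.42 ± 0.61 (SE) and 0.90 ± 0.42 (SE), and Fgf21, a hormone gene under PPAR alpha, by 0.59 ± 0.73 (SE). Ppargc1a was lowest on KO 4, the dim array, at 4.43, highest in KO 1 at 7.80, and detected on 4 of 5 KO arrays.

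Summed levels of some markers of other liver cells did not overlap between the groups. For 6 of 8 macrophage markers, the summed normalized level was 2518 to 4009 in the controls and 4062 to 5328 in the KO livers. All 6 had a higher KO mean, where 52.4% of all features had a lower one. An unadjusted p under 0.05 in limma was reached by 4 of the 6, all higher (1.64% of all features), and 0 passed. Cd5l was detected on 0 arrays and Cd68 had no probe under its symbol. For 7 of 8 stellate or smooth muscle markers, sums were 1946 to 2283 in the controls and 3333 to 4659 in the KO livers. Acta2 was the 1 feature that passed, at 1.68 ± 0.20 (SE) (limma adjusted p = 0.0421). These sums rest mostly on Acta2 and Reln, the brightest. Reln read 9.83 to 9.98 in the controls and from 9.30 (KO 3) to 10.50 (KO 1) in the KO livers, with overlap. The sum without Acta2 was not computed, so the separation of the sums is shown only with Acta2 included and is not a result for the cell type. Besides Acta2, only Tagln (0.86) did not overlap between the groups. Des (0.19) and Reln (0.10) were higher, and Lrat (-1.01), Pdgfrb (-0.28) and Rgs5 (-0.09) were lower. Myh11 was detected on too few arrays. For 6 endothelial markers the ranges were 5715 to 8856 and 5061 to 7918, sums that rest mostly on Clec4g, the brightest. Their median difference was 0.41. Lyve1 (1.29), Cdh5 (0.76), Kdr (0.66) and Pecam1 (0.15) had higher KO means, and Clec4g (-0.44) and Stab2 (-0.25) lower ones. The groups overlapped for each of the 6, and 0 passed. Of 5 adipocyte markers, which could share lipid genes, Adipoq, Plin1 and Retn were detected on 0 arrays, and Cfd had no probe under its symbol. Lep, the 1 measured, was detected on 2 of 4 control and 3 of 5 KO arrays. It differed by 0.53 ± 0.52 (SE), with overlap, and was highest on KO 4, the dim array, at 7.55. All 4 skeletal muscle markers were at 0 arrays. The hepatocyte markers had a median difference of 0.00, 4 of 8 lower. The part of the macrophage and smooth muscle markers in the lower KO means of the oxidation genes was not tested.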

How the data were processed

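Biotinylated cRNA from the total RNA of 9 livers was hybridized, per the labels. For every probe on every array the deposited non-normalized file gives an intensity and a detection p-value, per the file headers. The authors' normalized values lie on a log2 scale, judged by their range; the submitters' processing notes name Partek, and the steps are not given in the sources used here. Signals were background-corrected and quantile-normalized with limma neqc (offset 16, negative controls inferred from the detection p-values), and 15687 probes met the detection rule given above. The probe with the highest mean stood for each gene, which left 11559 features, 9319 with a symbol. Of 34885 probes with 1 symbol in the platform annotation, 34807 were matched by Entrez ID to RefSeq (GRCm38.p6).

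Groups were compared with limma (two-sided, no covariates, Benjamini-Hochberg over all features, threshold 0.05). The genes and lists were chosen with earlier results of these data known, so no list was tested. Named were all measured members; values by array were given for those with an unadjusted p under 0.05, the 3 of largest difference in each compartment, Acaa1a, Acaa1b, Pdk4 and Angptl4. Of the other pathway genes and regulators, those with an unadjusted p under 0.05, Ppara and Ltbr were named by rule, and other genes of that rule are not reported here; Acat1, Oxct1, Bdh2, Ppargc1a, Ppargc1b and Fgf21 were chosen after their values were seen. The surgery days pair livers, per the labels; deviations of same-day livers correlated at 0.168, -0.408 and -0.565 on days 1, 2 and 5 and, for the KO pair of day 4, at 0.344 (across genes, which are not independent replicates). R 4.3.3 with limma 3.58.1 was used, and Python 3.11.15 for promoters and figures. On simulated data of independent genes (11559 genes, same group sizes), the test found 0.4% of planted log2 differences of 0.5, 19.6% of those of 1, 73.6% of those of 2 and 93.6% of those of 3.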

Additional observations from a re-analysis of the deposited data

Results flagged for a closer look

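Over the 30 genes and both groups (60 sets of values), 3 livers lay far from the others of their group, where chance alone gives about 1 in 20 sets. Acads read 9.21 in control 1, and the next control stood at 9.58. Crat read 7.19 in KO 3, and the next KO liver stood at 6.00. Eci2 read 9.98 in KO 1, and the next KO liver stood at 10.35.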

How the results depend on the processing

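Single genes were followed through all alternatives for the 15 genes given by array, and the other 15 only with single livers left out. Genes passing over all features (1 with the main settings) numbered 0 with median scaling, with the mean of a gene's probes, with every probe on its own, with surgery day as replicate block (with or without KO 4), with slide as a term, on slide 1 or slide 2 alone and without control 1 and KO 4, 4 with KO 4 left out before background correction, 10 with array quality weights, 1071 in the authors' values, 415 in those without KO 4 and 0 in those with the day block; with single livers left out, 0 to 4. At an unadjusted p under 0.05 stood 7 of the 30 genes (473 of 11559 features), 1 with the block (175 of 11559 features) and 0 to 11 with single livers left out (0 without control 4). Of the 30 genes, 11 passed in the authors' values, 6 in those without KO 4, and 0 in every other fit. Their median difference (-0.33) was -0.78 with median scaling, -0.74 within day 1, 0.19 within day 5, -0.54 without control 1 and KO 4, and -0.52 to -0.33 with single livers left out. Median scaling also shifted the median of all features, from -0.02 to -0.26. The number with a lower KO mean (26) was 23 without control 4 and up to 28 with other single livers left out, 29 with median scaling, 11 within day 5, and 53 of 58 with every probe on its own. The mitochondrial median (-0.52) was -0.98 with median scaling, -1.01 within day 1, 0.175 within day 5 and -0.28 with the block and without KO 4. The peroxisomal median (-0.36) was -0.77, -0.71, -0.55 and -0.043 with median scaling and within days 1, 2 and 5; with single livers left out it was -0.59 to -0.30. The mitochondrial minus the peroxisomal median (-0.16) was -0.21 with median scaling, 0.012 in the authors' values, 0.067 in those with the block, -0.0021 in those without KO 4, -0.024 without a detection filter, 0.012 with the mean of a gene's probes, 0.12 with every probe on its own, -0.020 with the block, -0.048 with the block and without KO 4, -0.30, 0.15 and 0.22 within days 1, 2 and 5, -0.064 on slide 2, -0.058 with KO 4 left out before background correction, 0.050 with array weights, -0.11 without control 1 and KO 4, and -0.14 to 0.0013 with single livers left out. With single livers left out the sign turned for 9 of the 30 genes (Slc22a5, Acadvl, Acadl, Hadha, Hadhb, Acaa1b, Decr2, Pex11a and Angptl4). In the authors' values Acadvl was at 0.011 and Pex11a at -0.13. Angptl4 was -0.33 with median scaling, -0.12 in the authors' values (-0.11 with the block, -0.099 without KO 4), -0.084 with the block (-0.034 also without KO 4), -0.087 on slide 2 and -0.027 without KO 2, with up to 0.38 when another single liver was left out. Acaa1b was 0.020 with cyclic loess, 0.033 on slide 2, 0.0090 without control 1, 0.032 without KO 1, 0.046 without KO 4 (0.046 from background correction on), 0.16 without control 1 and KO 4, and 0.31 with array weights, and down to -0.23 with single livers left out. Slc22a5 was 0.012 with the block, 0.087 on slide 1 0.098 without control 4, and 0.46 and 0.34 within days 2 and 5. The causes were not tested. The fits without control 1 and KO 4, with the block and without KO 4, and of the authors' values with the block or without KO 4 were chosen after seeing the data. The planned restriction to peroxisomal targeting signals was not run, as no protein sequences were used here. Slide 1 alone sets 2 control livers against 2 KO livers.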

Other observations

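Of the 30 genes, 15 were read by more than 1 probe that passed the filter, and for 14 of them all probes agreed in sign; Pex11a was the exception, with its probes between -0.45 and 0.12. The dimmest probe of Abcd3 differed by -0.06, where its other probes differed by -0.49, -0.73 and -0.52. The probe with the highest mean did not give the largest difference for Cpt2, Slc22a5, Acadvl, Acadl, Decr2, Acot8, Nudt7, Abcd3 and Pex11a.

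The median SD between controls was 0.45 over the 30 genes and 0.34 over all features, and between KO livers 0.52 and 0.51.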
